A study of Homo sapiens with 6 samples.

Results

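The 7 miRNAs described here are hsa-miR-29a-3p, hsa-miR-29b-3p and hsa-miR-29c-3p, both arms of the miR-455 hairpin (hsa-miR-455-5p and hsa-miR-455-3p) and both arms of the miR-140 hairpin (hsa-miR-140-3p and hsa-miR-140-5p), written below without the species prefix. They were taken by name from the 471 miRNA names in the read count table of extracellular vesicle (EV) small RNA, because they are known for a place in the biology of collagen and of the extracellular matrix, and the rule used their names and no measured value, although earlier results of these data were known when the list was made. EVs were isolated by insulator-based dielectrophoresis from medium of Cal27 spheroids on day 14. Cal27 is a human oral squamous cell carcinoma line. Spheroids grew in Matrigel, a basement membrane extract, at 3 mg/mL (EV_soft, n = 3 libraries) or at 12 mg/mL (EV_stiff, n = 3 libraries), and both groups shared the cell line, the culture time and the isolation method. The study isolated the EVs of each library from a separate repeat of the culture. Matrigel concentration set the stiffness, so that stiffness and the amount of matrix protein around the spheroids cannot be told apart. The comparison asked whether the matrix that surrounds the spheroids changed the amount of these miRNAs in the EVs they released.

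A miRNA begins as a hairpin transcript that is cut into a duplex of about the length of a siRNA, and usually one arm of that duplex (5p or 3p) is loaded into the silencing complex while the other is degraded. The bases near the 5′ end of the loaded arm, called the seed, pair with sites in the 3′ UTR of target mRNAs. The miR-29 family is known for repressing fibrillar and basement membrane collagens, elastin and fibrillin, and its loss is a familiar feature of fibrosis. miR-140 and miR-455 are best known from cartilage, where the transcription factor SOX9 promotes their expression together with that of collagen genes.

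The mature sequences, from RefSeq on GRCh38.p14, show which of the 7 could act on the same targets. They are written 5′ to 3′ with the seed, bases 2 to 8, in capitals.
miR-29a-3p: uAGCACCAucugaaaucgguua
miR-29b-3p: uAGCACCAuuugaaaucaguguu
miR-29c-3p: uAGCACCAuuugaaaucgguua
miR-455-5p: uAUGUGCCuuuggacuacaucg
miR-455-3p: gCAGUCCAugggcauauacac
miR-140-3p: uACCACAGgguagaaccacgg
miR-140-5p: cAGUGGUUuuacccuaugguag
The 3 miR-29 members shared the seed AGCACCA, and no other name among the 413 of the table that matched RefSeq carried it. Each of the other 4 members had a seed held by no other matched name. With positions counted from 1 at the 5′ end, miR-29a-3p and miR-29c-3p differed only by C10U, so a single base tells their reads apart. How reads were assigned between these names is not given in the sources used. miR-29b-3p differed from miR-29a-3p by C10U, G18A, U21G and A22U, and was 1 base longer. The last bases of miR-29b-3p are known as a signal for import into the nucleus.

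The hairpins of miR-455 and miR-140 both lie within introns of protein-coding genes, with the mature arms in capitals below.
MIR455: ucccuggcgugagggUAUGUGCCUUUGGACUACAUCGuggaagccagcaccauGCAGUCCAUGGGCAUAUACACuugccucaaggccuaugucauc
MIR140: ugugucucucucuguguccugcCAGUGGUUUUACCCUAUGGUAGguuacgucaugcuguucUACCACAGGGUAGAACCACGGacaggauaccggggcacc
MIR455 lies at chr9:114209434-114209529 on the plus strand of GRCh38, in an intron of COL27A1, which encodes a fibrillar collagen of cartilage. MIR140 lies at chr16:69933081-69933180 on the plus strand, in an intron of WWP2, a ubiquitin ligase gene. The miR-29 hairpins form 2 clusters on the minus strand. MIR29A (chr7:130876747-130876810) and MIR29B1 (chr7:130877459-130877539) are 648 bases apart in exons of the lncRNA LINC-PINT. MIR29C (chr1:207801852-207801939) and MIR29B2 (chr1:207802443-207802523) are 503 bases apart in exons of the lncRNA MIR29B2CHG. MIR29B1 and MIR29B2 give the same mature miR-29b-3p, so its reads cannot be assigned to either hairpin.

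The site that miR-29 recognises in a collagen mRNA is the complement of its seed, which reads TGGTGCT in the sense strand of a 3′ UTR, or TGGTGCTA where an A follows. These sites are shown because they are how the family reaches the matrix, with the match in capitals.
COL1A1: ggggagggaatcacTGGTGCTA
COL3A1: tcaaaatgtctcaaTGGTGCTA
COL3A1: aaagacgcatgttaTGGTGCTA
COL4A1: ctaatgtcacaacaTGGTGCTA
In the canonical transcripts of GENCODE 44, the match ended the stretch shown from base 926 of the 1404-base 3′ UTR of COL1A1, from bases 245 and 685 of the 975 bases of COL3A1, and from base 33 of the 1403 bases of COL4A1. Of 15 known miR-29 targets searched, 15 held TGGTGCT and 11 held TGGTGCTA, against 13.8% and 3.12% of all 19911 genes with a 3′ UTR. The list was written from genes known as targets, so this share is no finding, and none of these mRNAs was measured in the libraries analysed here.

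The miRNA reads of a library summed to between 39211 and 66345 in EV_soft and to between 28688 and 30685 in EV_stiff. Every EV_stiff library thus had fewer miRNA reads than every EV_soft library. The study adjusted library volumes for equal numbers of sequenced reads, and the numbers reached per library are not given in the sources used. Whether sequencing depth or the miRNA part of each library gave this difference was not tested. Levels are given as CPM, reads scaled to a common total of tested miRNA reads with TMM factors, which brings libraries to a common level on the assumption that most miRNAs did not change. A library with 0 reads of a miRNA could have held up to 3 reads, which is 44.8 to 108 CPM depending on the library. These limits and the Wilson, Clopper-Pearson and exact counting intervals below cover counting error only, and take no account of PCR amplification of the reads. The intervals of log2 fold changes and of the arm model come from edgeR and also take in the spread between libraries. Epithelial miRNAs, which mark the labelled cell type, were abundant, with 7 of 7 listed and a summed level of 61977 to 71895 CPM in EV_soft and 53725 to 55336 CPM in EV_stiff. Of 6 stromal miRNAs, 5 were listed and none passed the filter on low counts. Their reads summed to 4 to 15 in an EV_soft library and 6 to 7 in an EV_stiff library. In CPM the stromal sum was 98.6 to 224 in EV_soft and 200 to 252 in EV_stiff, so the groups overlapped. Of 7 miRNAs of blood and liver, 6 were listed, and their summed level was 3224 to 5892 CPM in EV_soft and 6828 to 9560 CPM in EV_stiff, most of it from miR-122-5p, the main liver miRNA, while miR-451a of red blood cells had 24 reads over the 6 libraries and miR-223-3p of myeloid cells had 1. The study used serum depleted of EVs by ultracentrifugation, and cites earlier work that found miR-122-5p in small EVs of head and neck cancer lines. Whether small RNA from serum or from other cells had a part in the values below was not tested.

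The 7 miRNAs were a minor part of the miRNA reads of the EVs, and only miR-29a-3p and miR-455-5p had reads enough for a test. The 7 together took 0.231%, 0.242% and 0.193% of the miRNA reads of the EV_soft libraries. In the EV_stiff libraries they took 0.169%, 0.258% and 0.192%, so the summed shares of the groups overlapped. Over all 6 libraries miR-29a-3p had 317 reads and miR-455-5p had 151. Then came miR-140-3p with 25, miR-455-3p with 9, miR-140-5p with 5, miR-29b-3p with 4 and miR-29c-3p with 1. By mean share of reads, miR-29a-3p ranked 56 and miR-455-5p ranked 82 among the 471 names, and miR-140-3p ranked 150. miR-29a-3p and miR-455-5p were among 105 miRNAs kept by the low-count filter of edgeR, and the other 5 were not kept, so those 5 have no tested fold change.

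**Figure D1:**
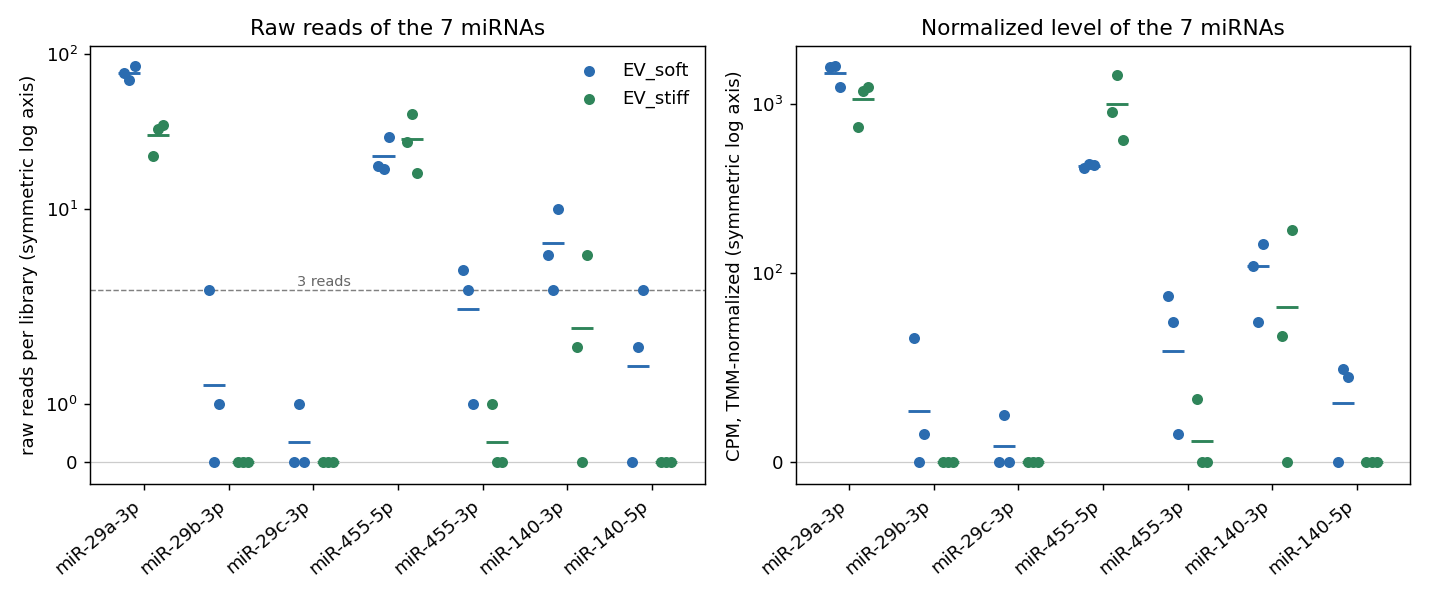
Raw reads (left) and TMM-normalized CPM (right) of the 7 miRNAs in each library, both on symmetric log axes that are linear near 0. Points are libraries, blue for EV_soft and green for EV_stiff, short lines are group means (n = 3), and the dashed line is 3 reads, the limit that 0 reads allow. Only miR-29a-3p and miR-455-5p lay well above that line, miR-29a-3p lower in raw reads in every EV_stiff library and miR-455-5p higher in CPM in every EV_stiff library.

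Reads of the miR-29 family were almost all miR-29a-3p. The EV_soft libraries had 75, 68 and 84 reads of miR-29a-3p and the EV_stiff libraries had 22, 33 and 35. Raw reads were thus lower in every EV_stiff library, but so were the raw reads of 64.8% of the tested miRNAs. Those libraries had fewer miRNA reads in total. As a share of all miRNA reads, miR-29a-3p took 0.164%, 0.173% and 0.127% in EV_soft and 0.0717%, 0.115% and 0.118% in EV_stiff. These shares did not overlap between the groups, as was the case for 49.5% of the tested miRNAs, and for 30.5% with EV_stiff lower. In TMM-scaled values, miR-29a-3p was at 1648, 1676 and 1254 CPM in EV_soft and at 733, 1186 and 1262 CPM in EV_stiff. On that scale the lowest EV_soft library fell just under the highest EV_stiff library, so the groups overlapped, while the CPM of 47.6% of the tested miRNAs did not overlap.

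The mean level of miR-29a-3p was 1526 ± 236 CPM (SD, n = 3) in EV_soft and 1060 ± 286 CPM (SD, n = 3) in EV_stiff. The log2 fold change of EV_stiff over EV_soft was -0.52 with a standard error of 0.27, and its 95% interval ran from -1.12 to 0.08 (edgeR quasi-likelihood test, adjusted p = 0.172 by Benjamini-Hochberg over the 105 tested miRNAs). miR-29a-3p was therefore not called, where a call needed a log2 change larger than 0.58 in size together with an adjusted p no higher than 0.05, a rule that 18.1% of the tested miRNAs met, and 7.62% with EV_stiff lower. The interval holds both no change and a loss of more than the fold that a call needed. By the size of its fold change miR-29a-3p stood 39th of 105, and by its p value 51st, near the middle of the miRNAs measured. An unadjusted p under 0.05 with EV_stiff lower was found for 21% of them. EV_stiff replicate 1 had the lowest level, and without it the log2 fold change was -0.33 (adjusted p = 0.356). When every library was given the same size, the difference in total miRNA reads stayed in the values. miR-29a-3p was then called lower at -1.33 (edgeR adjusted p = 0.00229), but the median of all tested miRNAs moved from -0.04 to -0.89. Relative to that median the log2 fold change of miR-29a-3p was -0.48 with TMM scaling and -0.44 with equal sizes.

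miR-29b-3p and miR-29c-3p were at the limit of detection. The EV_soft libraries had 3, 0 and 1 reads of miR-29b-3p and no EV_stiff library had any. miR-29c-3p had a single read, in EV_soft replicate 2. Within the family, miR-29a-3p gave 227 of 232 reads (97.8%, exact Clopper-Pearson 95% interval 95.04 to 99.3%) in EV_soft and 90 of 90 (interval 96.0 to 100%) in EV_stiff. These intervals do not cover reads given to the wrong one of miR-29a-3p and miR-29c-3p. A count of 0 in 90 family reads allows a share of up to 3.33% for miR-29b-3p or for miR-29c-3p in EV_stiff, so a difference in family make-up between the groups was not detectable at this depth. The other strands of these hairpins, the 5p arms, were as rare. Only miR-29c-5p was listed, with 1 read in EV_soft replicate 1. miR-29a-3p and miR-29b-3p share the MIR29A and MIR29B1 cluster, yet their reads stood at 317 and 4. Adapter ligation and the stability of a miRNA in an EV differ between sequences, so read numbers of different miRNAs are not ratios of molecules.

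miR-455-5p was higher in EV_stiff and was the one member that was called. Its reads were 19, 18 and 29 in EV_soft and 27, 41 and 17 in EV_stiff, and these raw reads overlapped. In CPM it was at 417, 444 and 433 in EV_soft and at 899, 1474 and 613 in EV_stiff. On that scale every EV_stiff library was above every EV_soft library, as was the case, with EV_stiff higher, for 22.9% of the tested miRNAs. The mean rose from 431 ± 13.2 CPM (SD, n = 3) to 995 ± 438 CPM (SD, n = 3), a ratio of 2.31. The log2 fold change was 1.20 with a standard error of 0.36 and a 95% interval from 0.40 to 2.00 (edgeR quasi-likelihood test, adjusted p = 0.0314). Of the tested miRNAs, 10.5% were called higher in EV_stiff, and among those 11 the fold change of miR-455-5p was the 3rd in size.

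**Figure D2:**
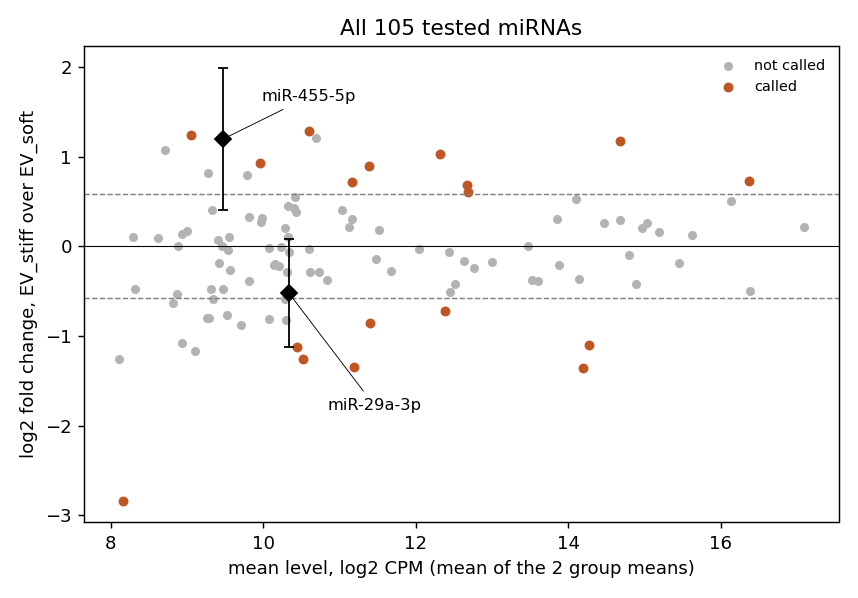
Log2 fold change of EV_stiff over EV_soft against the mean log2 CPM of the 2 group means for the 105 tested miRNAs. Orange points were called and grey points were not, dashed lines mark a log2 fold change of 0.58 in either direction, and black diamonds with 95% intervals are miR-455-5p at 1.20, whose interval lies above 0, and miR-29a-3p at -0.52, whose interval crosses 0.

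The spread of miR-455-5p differed between the groups. Its coefficient of variation was 3.06% over the EV_soft libraries, where the median of the tested miRNAs was 13.5% and 3 miRNAs varied less. Over the EV_stiff libraries it was 44.04%, where the median was 16.6% and 11 miRNAs varied more. EV_stiff replicate 2 had the most reads, and EV_stiff replicate 3 was the closest to the EV_soft libraries. The call of miR-455-5p was lost without EV_stiff replicate 2 (log2 fold change 0.82, adjusted p = 0.129), without EV_stiff replicate 1 (1.26, adjusted p = 0.0760) and without EV_soft replicate 3 (1.20, adjusted p = 0.0961), while its direction was kept in each. It was also lost with no filter on low counts (1.13, adjusted p = 0.0674) and with equal library sizes (0.36, adjusted p = 0.504), although relative to the median of all tested miRNAs the value was 1.24 with TMM scaling and 1.25 with equal sizes. Beside this rise stood the higher blood and liver sum given above, of whose 2 tested miRNAs miR-122-5p was called higher at a log2 fold change of 1.03 (edgeR adjusted p = 0.00295) and miR-486-5p was at 0.10 (edgeR adjusted p = 0.946). Of the 6 tested epithelial miRNAs, 3 were called lower in EV_stiff, miR-200a-3p at -1.12, miR-200b-3p at -0.73 and miR-200c-3p at -1.10. Over all tested miRNAs, 7.62% were called lower. The other epithelial miRNAs were not called, with miR-429 at -0.76 and, in the other direction, miR-205-5p at 0.20 and miR-203a-3p at 1.21. The part of the blood and liver or the epithelial miRNAs in the rise of miR-455-5p was not tested.

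**Figure D3:**
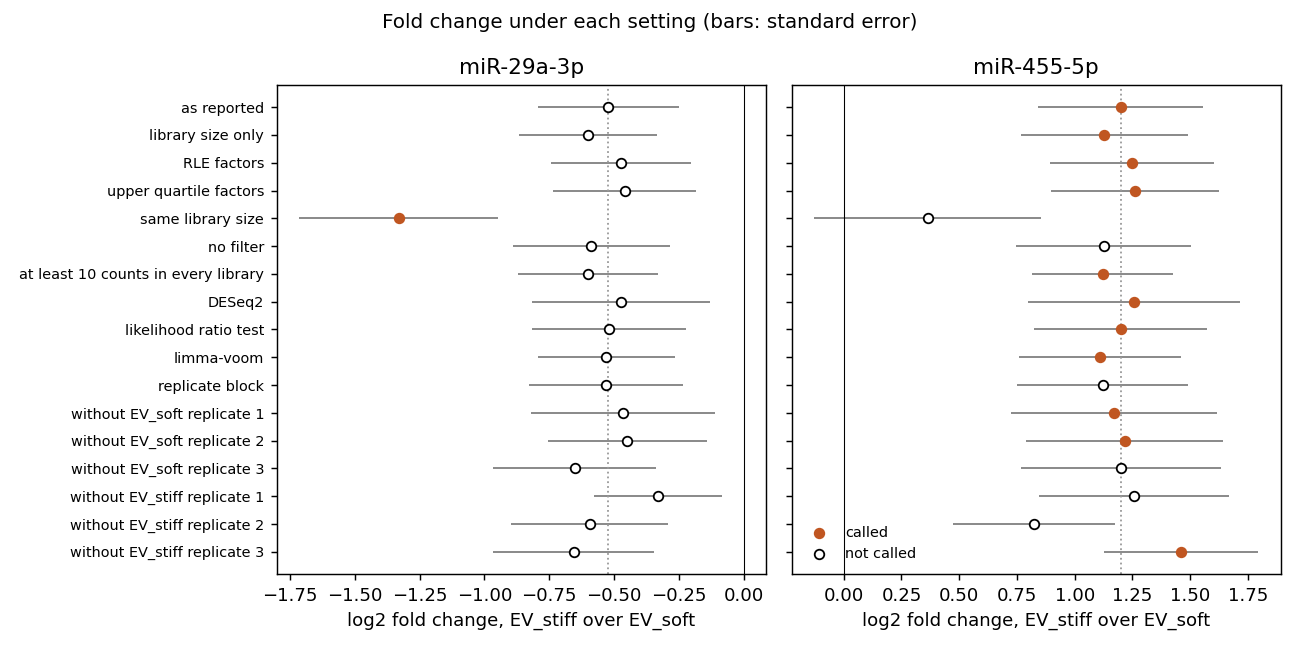
Log2 fold change of EV_stiff over EV_soft for miR-29a-3p (left) and miR-455-5p (right) under each normalization, filter, test and left-out library. Points are estimates, filled where the miRNA was called, bars are standard errors, the dotted line is the value as reported and the solid line is 0. Every estimate of miR-29a-3p lies below 0 and every estimate of miR-455-5p above 0, and the setting that stands farthest from the others is the one with the same library size.

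The other arm of that hairpin, miR-455-3p, was read too rarely to be followed. The EV_soft libraries had 4, 3 and 1 reads of miR-455-3p and the EV_stiff libraries had 1, 0 and 0. That is 8 of 151414 reads against 1 of 89086, a ratio of EV_stiff over EV_soft of 0.212 with an exact 95% counting interval from 0.00479 to 1.58, which includes no difference. The 5p arm had more reads than the 3p arm in 6 of 6 libraries. Its share of the hairpin's reads was 82.6% (Wilson 95% interval 62.9 to 93.0%), 85.7% (65.4 to 95.02%) and 96.7% (83.3 to 99.4%) in EV_soft. In EV_stiff it was 96.4% (82.3 to 99.4%), 100% (91.4 to 100%) and 100% (81.6 to 100%). EV_soft replicate 3 and EV_stiff replicate 1 had nearly the same share, and the intervals of all 6 libraries overlapped.

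The log2 ratio of miR-455-5p to miR-455-3p reads, with 0.5 added to each, was 2.94 ± 1.19 (SD, n = 3) in EV_soft and 5.23 ± 1.09 (SD, n = 3) in EV_stiff. The difference was 2.30, with overlap between the groups (exact permutation test, two-sided p = 0.2, where 0.1 is the smallest p that 3 against 3 allow). EV_stiff replicates 2 and 3 had no read of miR-455-3p, so their ratios were set by their 5p reads and the added 0.5. With 1 added in place of 0.5, the difference was 1.74. Ratios that did not overlap between the groups were found in 13.5% of the 37 hairpins that had at least 5 reads in each arm. A model of arm by group with the library as a block, fitted across these 37 hairpins, gave a log2 change of the ratio of 3.10 with a standard error of 1.86 and a 95% interval from -0.58 to 6.77 (edgeR adjusted p = 0.592), and it called 5.41% of them. This model was added after the reads of the arms were seen, because neither hairpin had 10 reads in both arms. A shift of the miR-455 hairpin toward its 5p arm was therefore not detectable at this depth. Summed over libraries, 66 of 74 reads were 5p in EV_soft and 85 of 86 in EV_stiff.

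**Figure D4:**
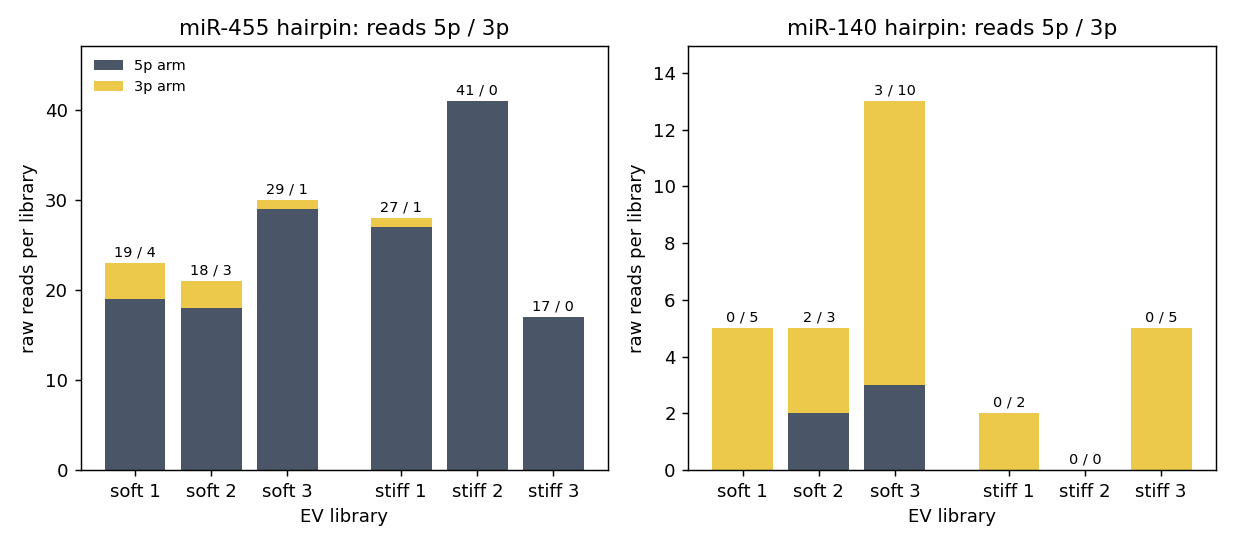
Raw reads of the 5p arm (dark) and the 3p arm (yellow) of the miR-455 hairpin (left) and the miR-140 hairpin (right) in each library, with both numbers written above each bar as 5p / 3p. The miR-455 hairpin was read mainly from its 5p arm in all 6 libraries, and the miR-140 hairpin mainly from its 3p arm in the 5 libraries that had any read.

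The miR-140 hairpin showed the opposite arm preference at a lower level. The EV_soft libraries had 5, 3 and 10 reads of miR-140-3p and the EV_stiff libraries had 2, 0 and 5. In CPM these were 110, 74.0 and 149 in EV_soft and 66.6, 0 and 180 in EV_stiff, so that the highest and the lowest value both belonged to EV_stiff. The means were 111 ± 37.7 CPM and 82.3 ± 91.1 CPM (SD, n = 3 each). Summed reads were 18 in EV_soft and 7 in EV_stiff, a ratio of EV_stiff over EV_soft of 0.661 with an exact 95% counting interval from 0.233 to 1.66, so neither a rise nor a fall of miR-140-3p was detectable at this depth. miR-140-5p, the arm best known from cartilage, had 0, 2 and 3 reads in EV_soft and 0 in each EV_stiff library. These reads are at the limit that a count of 0 allows, and no fold is given for them.

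The 3p arm had more reads than the 5p arm in each of the 5 libraries with a read of the miR-140 hairpin. Of its reads, 5 of 23 were 5p in EV_soft (21.7%, exact Clopper-Pearson 95% interval 7.46 to 43.7%) and 0 of 7 in EV_stiff (interval up to 41.0%). The log2 ratio of 5p to 3p reads was -1.84 ± 1.50 (SD, n = 3) in EV_soft and -1.93 ± 1.76 (SD, n = 3) in EV_stiff, a difference of -0.08 (exact permutation test, two-sided p = 1.0). EV_stiff replicate 2 had no read of either arm, so its ratio came from the added 0.5 alone, and without it the difference was -1.05 (exact permutation test, two-sided p = 0.6). No statement on a change of arm use of miR-140 can rest on 7 reads in EV_stiff.

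By group means, miR-29a-3p stood above miR-455-5p in both groups, but not in every library. In EV_soft the reads of miR-29a-3p were above those of miR-455-5p in every library, with a ratio of miR-29a-3p to miR-455-5p reads of 3.95, 3.78 and 2.90. In EV_stiff the ratio was 0.815, 0.805 and 2.06, so miR-455-5p had more reads in replicates 1 and 2, and the levels of the pair overlapped. A ratio taken within a library does not depend on the scaling between libraries. This pair was set side by side after its values were seen, and the ratios of 40.6% of all pairs of tested miRNAs did not overlap between the groups, so the separation was not unusual. miR-455-5p was above miR-140-3p in every library of both groups. The levels of miR-140-3p and miR-455-3p overlapped in each group, as did those of miR-455-3p, miR-140-5p, miR-29b-3p and miR-29c-3p with one another.

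Over the 6 libraries, the tested miRNAs whose log2 CPM followed miR-29a-3p most closely were miR-10b-5p (Pearson r = 0.857), miR-186-5p (0.855) and miR-155-5p (0.854). Those closest to miR-455-5p were miR-100-5p (0.960), miR-24-3p (0.952) and let-7e-5p (0.951). These are the highest of 104 coefficients for each miRNA and are a description of 6 libraries that also differ in group and in total miRNA reads. For miR-100-5p the log2 fold change was 0.55 (edgeR adjusted p = 0.139), so the miRNA most like miR-455-5p across libraries was not itself called.

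Other miRNAs known for matrix, fibrosis or SOX9 targets were set beside the members. Of 23 such names, 17 were listed, 6 were tested and 0 were called by edgeR's quasi-likelihood test, with 3 at an unadjusted p under 0.05, while over all 105 tested miRNAs 18.1% were called and 42 had an unadjusted p under 0.05. With so few tested, nothing particular to the list is read from these counts. DESeq2 and limma-voom also called 0 of the 6, and each called 18 of all 105 tested miRNAs. The likelihood ratio test of edgeR called 1 of the 6 and 27 of the 105. The median log2 fold change of the 6 was -0.33, where the median over all tested miRNAs was -0.04. The most abundant was miR-21-5p, which is known to promote fibrosis and had means of 99584 CPM in EV_soft and 70794 CPM in EV_stiff, a log2 fold change of -0.49 (edgeR adjusted p = 0.00395). Its fold change was under the threshold of a call, as was that of miR-27b-3p, which is known to repress the collagenase MMP13, at -0.37 (edgeR adjusted p = 0.0308). miR-196a-5p, which has collagen targets, passed the fold threshold at -0.82 but not the test (edgeR adjusted p = 0.0572). miR-7-5p at -0.29, miR-192-5p at -0.20 and miR-26a-5p at 0.01 passed neither. Of the stromal miRNAs in this list, miR-199a-3p, miR-199a-5p and miR-214-3p had 2, 1 and 1 reads over the 6 libraries. miR-143-3p had 15 reads, miR-126-3p had 28 and miR-145-5p was not listed.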

How the data were processed

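Small RNA libraries (NEBNext kit, inserts of miRNA length, no molecular identifiers stated) of 3 EV_soft and 3 EV_stiff samples were grouped and numbered by their titles. The authors checked read quality with exceRpt, counted reads over RefSeq features, and the raw counts were deposited. The submitters' processing notes name hg38, and the aligner and the treatment of reads that match several miRNAs are not given in the sources used here. Of 471 rows, 8 carry several names and none is a member. Library pairs differed by more than sampling noise (chi-square per degree of freedom at least 3.40). Counts were analysed with edgeR 4.0.16 in R 4.3.3 (filterByExpr, 105 miRNAs kept, 98.5 to 98.7% of reads; TMM; quasi-likelihood test; Benjamini-Hochberg adjustment; no replicate block), with DESeq2 1.42.0 and limma 3.58.1 as alternatives. The thresholds are those of the study. The edgeR p-values weigh a change against the spread between these libraries, estimated in part from all tested miRNAs together. The arm ratios of miR-455 and miR-140 were compared by exact two-sided permutation tests. Named miRNAs were the members, the other miR-29 arms, a list of matrix miRNAs, marker lists and the 3 tested miRNAs most correlated with a tested member. Members and lists were chosen with earlier results of these data known. The fits were tested on simulated data. Hairpins and mature sequences came from RefSeq by name (413 of 471 matched), and 3′ UTRs from GENCODE 44, searched on the sense strand. Normalization, filter, test, pairing, pseudocount and left-out libraries were varied.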

Additional observations from a re-analysis of the deposited data

How the results depend on the processing

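The count of 19 called miRNAs stayed between 13 and 27 in 15 of 16 alternatives and became 57, with 0 higher and 57 lower, with all libraries set to the same size, where 62 had an unadjusted p under 0.05. With library size only, 8 were higher and 11 lower in place of 11 and 8. The log2 fold change of miR-29a-3p kept its direction in all 16 and stayed uncalled in 15, with adjusted p from 0.00229 to 0.454. It was -1.33 with the same library size and ranged from -0.66 to -0.33 with 1 library left out. That of miR-455-5p kept its direction in all 16 and its call in 10, with adjusted p from 0.00762 to 0.504. It was 0.36 with the same library size, under the fold that a call needed, and 1.13 with no filter, past that fold but with an adjusted p of 0.0674. It ranged from 0.82 to 1.46 with 1 library left out, where 3 of 6 fits kept the call. Fewer libraries enter those 6 fits, and beyond that the cause was not tested. The replicate block, using the shared numbers of the labels, gave 16 called miRNAs, -0.53 for miR-29a-3p (edgeR adjusted p = 0.233) and 1.12 for miR-455-5p (edgeR adjusted p = 0.0742, so not called). With this block the arm ratio differences were 2.30 for miR-455 and -0.08 for miR-140, and the arm usage changes were 3.40 and -2.53. For the miR-455 arm ratio the exact permutation p within pairs was 0.25, the smallest that 3 pairs allow. The numbers were not taken to pair the samples, since the correlations of same-numbered deviations were -0.127, 0.130 and -0.0274 and not every library correlated best with its own number. The miR-455 arm ratio difference stayed between 1.72 and 2.97. The miR-140 difference changed sign, with 0.10 for a pseudocount of 1 and -1.05 to 0.68 with 1 library left out, and was -2.16 for pooled reads; it rests on 30 reads. The summed-read log2 ratio was -2.87 to -1.65 for miR-455-3p, whose only EV_stiff read is in replicate 1, and -1.82 to -0.04 for miR-140-3p. Arm usage with at least 10 or 30 reads per arm gave no value for either hairpin, and the 5 members that failed the filter have no tested fold change. Their low read counts limit what can be said of these 5.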
